A study of Homo sapiens with 9 samples.

Results

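The 33 genes described here are parts and targets of the unfolded protein response and the integrated stress response, 2 linked programmes by which cells adjust to misfolded protein, lack of amino acids and related stresses. They were chosen by gene symbol for their known roles, with earlier results of these data known. All 33 were found among the 60675 genes counted. The list holds 23 genes on the side of the transcription factor ATF4 and 10 on the side of the endoplasmic reticulum (ER). The first set comprises 7 transcription factors, 6 enzymes of serine, one-carbon and asparagine synthesis, 4 amino acid transporters or their subunits, and 6 further targets of ATF4 or CHOP. The second comprises 3 genes for ER stress sensors and XBP1, and 7 genes for ER chaperones, folding and ER-associated degradation.

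Total RNA was sequenced from LNCaP:C4-2 cells, a castrate-resistant, enzalutamide-sensitive human prostate cancer cell line, after shRNA against METTL3, the catalytic subunit of the complex that writes N6-methyladenosine on RNA. Each of 3 groups had 3 libraries: cells with a non-targeting shRNA (shScramble), cells with shMETTL3 guide 2, and cells labelled shMETTL3 guide 1. All groups carried a lentiviral shRNA construct, named pLKO.1-puro in the labels and Tet-pLKO-puro, a tetracycline-inducible vector, in the study's methods. They had been selected with puromycin and received doxycycline at 1 µg/ml for 6 days in phenol red-free medium with 10% charcoal-stripped serum. Every library is also labelled vehicle, which in the study's androgen experiments was ethanol given in place of androgen. Doxycycline, lentivirus, stripped serum and vehicle were thus shared by the controls. The study describes the lines as stable selected clones, and nothing states that libraries of a group came from separate transductions or cultures; the p-values below then measure only the spread between these libraries. In bulk RNA, a change in the share of a kind of cell and a change of RNA per cell cannot be told apart.

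Totals ran from 21899501 to 30897639 counts per library, and the 33 genes together took 1.39% to 1.61% of them. METTL3 had 922, 1010 and 753 counts with shScramble, 382, 415 and 349 with guide 2, and 837, 837 and 886 in the libraries labelled guide 1. As CPM, counts scaled for library size by TMM (edgeR's trimmed mean of M values), that was 31.5 ± 1.59 (SD, n = 3), 16.3 ± 0.423 and 29.7 ± 0.378. The log2 fold change was -0.95 ± 0.0687 (SE), adjusted p = 2.97e-12 with guide 2 and -0.08 ± 0.0633 (SE), adjusted p = 0.251 in the libraries labelled guide 1 (edgeR). The libraries labelled guide 1 therefore went against their label, and are called by that label throughout. Summed CPM of 11 prostate luminal markers was 2800.2 to 2828 with shScramble, 3191 to 3331 with guide 2 and 1451 to 1498 in the libraries labelled guide 1, and all 11 had counts. Summed CPM of 7 neuroendocrine markers was 16.9 to 18.0, 15.1 to 17.8 and 94.3 to 100.4 in the same order, and that of 7 fibroblast and mesenchymal markers was 67.1 to 69.1, 40.9 to 44.1 and 154 to 189, with DCN at 0 in every library. A sum can hide markers that go the other way. Of 6 neuroendocrine markers tested, 1 rose and 4 fell with guide 2 (adjusted p under 0.05 and 1.5-fold or more, edgeR). Of all genes tested, 8.85% rose and 20.4% fell with guide 2. In the libraries labelled guide 1, 5 rose and 0 fell, against 21.2% and 16.5% of all genes. Of the 11 luminal markers, 2 rose and 1 fell with guide 2, and 0 rose and 6 fell in the libraries labelled guide 1. Of 3 fibroblast and mesenchymal markers tested, 1 rose and 1 fell with guide 2. In the libraries labelled guide 1, 1 rose and 2 fell. Summed CPM of 5 immune markers stayed at or under 2.11, with 1 marker at 0 in every library. The part of these differences in the results below was not tested.

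As background, the ER holds a chaperone, BiP (HSPA5), that binds unfolded protein and keeps 3 sensors at rest. PERK (EIF2AK3) phosphorylates the initiation factor eIF2, which lowers protein synthesis in general while ATF4 is translated more. IRE1 (ERN1) splices the XBP1 messenger, and ATF6 is cleaved to a transcription factor; both lead to more chaperones and degradation factors. Other kinases phosphorylate eIF2 on amino acid loss, viral RNA or haem deficiency, so ATF4 and its targets can rise without the ER arm. ATF4 raises genes for amino acid supply and, with longer stress, CHOP (DDIT3), ATF3 and the phosphatase subunit GADD34 (PPP1R15A), which reverses the phosphorylation of eIF2.

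The 2 sides are known for different promoter elements, and the stretches that hold them are shown. The genes were chosen as known parts and targets of these responses. The shares of genes with an element are therefore a description and not a test. Promoter windows of 300 bases (250 before and 50 after a transcription start) were present in the RefSeq table used (GRCh38.p14) for 29 of the 33 genes, with 43 windows; NUPR1, PSPH, SHMT2 and SLC7A11 had none in it. The ER stress response element was searched as CCAAT, any 9 bases, then CCACG, on both strands. It was present in windows of 4 genes, all on the ER side (4 of 10), and in 0.0916% of all 27305 genes with a window. Each stretch reads 5′ to 3′ on the strand of the gene, with the matched letters in capitals.
HSPA5 chr9:125241361-125241439 (minus strand): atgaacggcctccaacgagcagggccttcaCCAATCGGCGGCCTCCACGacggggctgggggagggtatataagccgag
HSP90B1 chr12:103930186-103930369 (plus strand): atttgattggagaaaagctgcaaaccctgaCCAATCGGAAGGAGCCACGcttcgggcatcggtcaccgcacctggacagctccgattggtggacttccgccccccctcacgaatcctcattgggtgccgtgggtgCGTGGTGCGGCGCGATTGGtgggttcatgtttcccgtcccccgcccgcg
CALR chr19:12938359-12938432 (plus strand): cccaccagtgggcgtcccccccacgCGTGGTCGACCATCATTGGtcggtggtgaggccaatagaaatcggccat
XBP1 chr22:28800573-28800651 (minus strand): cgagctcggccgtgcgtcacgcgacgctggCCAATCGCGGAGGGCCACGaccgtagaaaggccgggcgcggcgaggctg
HSP90B1 held the element 2 times, once on each strand, and CALR held it on the opposite strand only. The C/EBP-ATF response element, which ATF4 binds with a C/EBP partner, was searched as TGATGNAA on both strands. It was present in windows of 7 genes: 6 of 19 on the ATF4 side (ATF3, CEBPG, ASNS, SLC3A2, SLC7A1 and CHAC1) and HERPUD1 on the ER side. Of all genes with a window 4.46% held it. Examples from 5 of the 7 are shown, with the element on the strand of the gene for ATF3, CEBPG and ASNS and on the other strand for CHAC1 and HERPUD1.
ATF3 chr1:212565186-212565253 (plus strand): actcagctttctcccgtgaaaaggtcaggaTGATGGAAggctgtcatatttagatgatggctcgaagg
CEBPG chr19:33374041-33374108 (plus strand): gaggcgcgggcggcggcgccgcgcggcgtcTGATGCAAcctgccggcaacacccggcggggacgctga
ASNS chr7:97872439-97872506 (minus strand): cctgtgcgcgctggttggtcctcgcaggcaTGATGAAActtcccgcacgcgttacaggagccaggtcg
CHAC1 chr15:40953232-40953299 (plus strand): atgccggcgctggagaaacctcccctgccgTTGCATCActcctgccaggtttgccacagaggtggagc
HERPUD1 chr16:56931936-56932003 (plus strand): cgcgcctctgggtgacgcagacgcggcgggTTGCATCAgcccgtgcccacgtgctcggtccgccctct
The cyclic AMP response element, searched as TGACGTCA, was present for PPP1R15A alone among the 29, against 2.25% of all genes.
PPP1R15A chr19:48872333-48872400 (plus strand): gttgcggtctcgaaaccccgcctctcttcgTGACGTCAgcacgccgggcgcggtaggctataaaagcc
The XBP1 element TGACGTGG was in none of the 43 windows and in 0.927% of all genes. These are matches of letters and not measured binding sites.

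With guide 2, the stress effectors ATF3, DDIT3 and PPP1R15A fell, ER chaperones moved in both directions, and the messenger of ATF4 was 1.30-fold higher, which is below the limit for a call. Called genes passed edgeR's quasi-likelihood test with a Benjamini-Hochberg adjusted p under 0.05 over all 19278 genes tested, and differed by 1.5-fold or more; all 33 genes passed the filter on low counts. Of the 33, 2 rose (SDF2L1 and CALR) and 6 fell (ATF3, DDIT3, PPP1R15A, ERN1, HSPA5 and DNAJB9), which is 24.2%. Over all genes tested 29.3% were called, 8.85% raised and 20.4% lowered; scaling by library size alone took the share of rises among all calls from 30.2% to 17.2%. The median log2 fold change of the 33 was -0.21, against -0.04 over all genes tested. Of the 33, 30 were among the 6426 most expressed genes. Of those 6426, 14.1% were called, 10.7% raised and 3.38% lowered, and of the 30 genes 2 rose and 5 fell. The adjusted p alone was passed by 27 of the 33, 9 higher and 18 lower, and by 61.8% of all genes tested. The guide 2 and shScramble libraries did not overlap for 28 of the 33, 10 higher and 18 lower, where 32.5% and 34.1% of all genes did so. With the libraries labelled guide 1 left out of the fit, the same 2 genes rose and the same 6 fell.

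**Figure D1:**
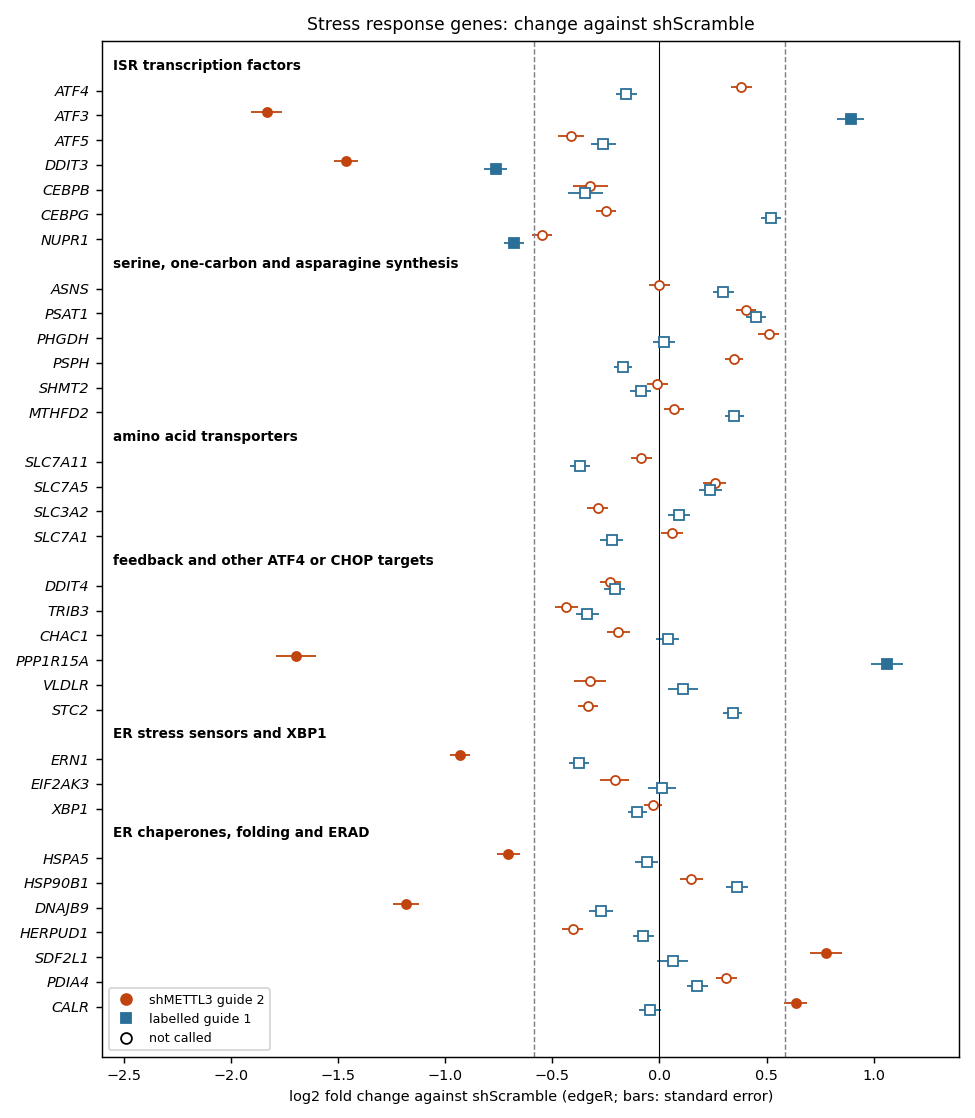
Log2 fold change (horizontal axis) of each of the 33 genes (rows, by role) with shMETTL3 guide 2 (circles) and in the libraries labelled guide 1 (squares) against shScramble; bars are standard errors of the edgeR fit, filled marks passed both thresholds and dashed lines mark a fold change of 1.5. ATF3 and PPP1R15A lie far to the left with guide 2 and to the right in the libraries labelled guide 1, while the synthesis and transport genes lie within the dashed lines.

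In the libraries labelled guide 1, 2 of the 33 rose (ATF3 and PPP1R15A) and 2 fell (DDIT3 and NUPR1), which is 12.1%. Over all genes tested 37.7% were called, 21.2% raised and 16.5% lowered. The median log2 fold change of the 33 was -0.04, against -0.02 over all genes. All 4 called genes were on the ATF4 side, and 0 of the 10 ER genes passed both thresholds in edgeR or in DESeq2, although 5 passed the adjusted p alone (2 higher and 3 lower). Of the 33, 23 passed it, 10 higher and 13 lower, as did 68.4% of all genes tested. Of the 6426 most expressed genes 21.0% were called, 10.7% raised and 10.3% lowered, and of the 30 genes among them 1 rose and 2 fell. Libraries did not overlap for 11 genes that were higher and 14 that were lower, against 36.5% and 34.5% of all genes. The 2 comparisons share the shScramble libraries. Side by side, DDIT3 fell in both, ATF3 and PPP1R15A fell in one and rose in the other, and 24 genes were called in neither. The share of all genes with each such pair of calls is not given here, so these counts only describe the 33.

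Among the transcription factors, ATF4 (gene at chr22:39519695-39522685, plus strand, GRCh38), the factor at the centre of the integrated stress response, stood at 822, 842 and 824 CPM with shScramble, 1054, 1044 and 1145 with guide 2 and 766, 715 and 754 in the libraries labelled guide 1. All 3 guide 2 libraries lay above all others. With guide 2 the log2 fold change was 0.38 ± 0.0488 (SE), adjusted p = 1.37e-07, a difference of 1.30-fold that did not reach 1.5. It was -0.15 ± 0.0487 (SE), adjusted p = 0.00661 in the libraries labelled guide 1. ATF4 is controlled largely by translation, which these counts do not measure.

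ATF3 (chr1:212565334-212620777, plus strand), a stress-induced factor and target of ATF4, had 101, 103 and 107 CPM with shScramble and 28.6, 27.7 and 31.4 with guide 2. It had 215, 171 and 194 CPM in the libraries labelled guide 1, so the 3 groups formed 3 separate bands. The log2 fold change was -1.83 ± 0.0728 (SE), adjusted p = 5.88e-14 with guide 2 (3.56-fold lower) and 0.89 ± 0.0646 (SE), adjusted p = 2.18e-10 in the libraries labelled guide 1. DDIT3 (chr12:57516588-57520517, minus strand), which encodes the pro-apoptotic factor CHOP, had 172, 181 and 191 CPM with shScramble, 64.0, 63.2 and 69.9 with guide 2 and 115, 100.4 and 104 in the libraries labelled guide 1. The guide 2 libraries were lowest, and the libraries labelled guide 1 also lay below every shScramble library. Its log2 fold change was -1.46 ± 0.0555 (SE), adjusted p = 9.07e-18 with guide 2 and -0.76 ± 0.0533 (SE), adjusted p = 6.06e-13 in the libraries labelled guide 1. In the annotation, 28.0% of the exon bases of DDIT3 also lie in exons of MARS1 on the other strand, whose mean was 402, 522 and 369 CPM in the 3 groups. The strand setting of the counting was not given in the sources used here, so reads in that stretch cannot be assigned to one of the 2 genes with certainty.

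NUPR1 (chr16:28532708-28539174, minus strand), a small stress-induced chromatin protein, had 626, 625 and 646 CPM with shScramble, 418, 426 and 452 with guide 2 and 397, 379 and 409 in the libraries labelled guide 1. The guide 2 libraries and those labelled guide 1 lay below every shScramble library. Its log2 fold change was -0.68 ± 0.0468 (SE), adjusted p = 3.66e-13 in the libraries labelled guide 1, which was called, and -0.55 ± 0.0468 (SE), adjusted p = 7.58e-11 with guide 2, which stood at 1.46-fold and was not. CEBPG (chr19:33373330-33382686, plus strand), a C/EBP partner of ATF4, had 205, 198 and 208 CPM with shScramble, 174, 168 and 172 with guide 2 and 305, 275 and 295 in the libraries labelled guide 1. The groups did not overlap, with guide 2 lowest and the libraries labelled guide 1 highest. Neither difference from shScramble reached 1.5-fold: the log2 fold changes were -0.25 and 0.52. ATF5, a factor tied to the mitochondrial stress response, and CEBPB, another C/EBP factor, had log2 fold changes of -0.41 and -0.32 with guide 2 and -0.26 and -0.35 in the libraries labelled guide 1, and none was called. Exon bases are shared with the other strand in both, 21.2% for ATF5 and 11.8% for CEBPB, and ATF5 shares 2.51% on its own strand. Among the genes that share bases with ATF5, NUP62 had counts equal to 79.4% of those of ATF5 with shScramble. That figure was 134% with guide 2 and 143% in the libraries labelled guide 1. Reads in the shared stretches cannot be assigned to one gene with certainty.

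**Figure D2:**
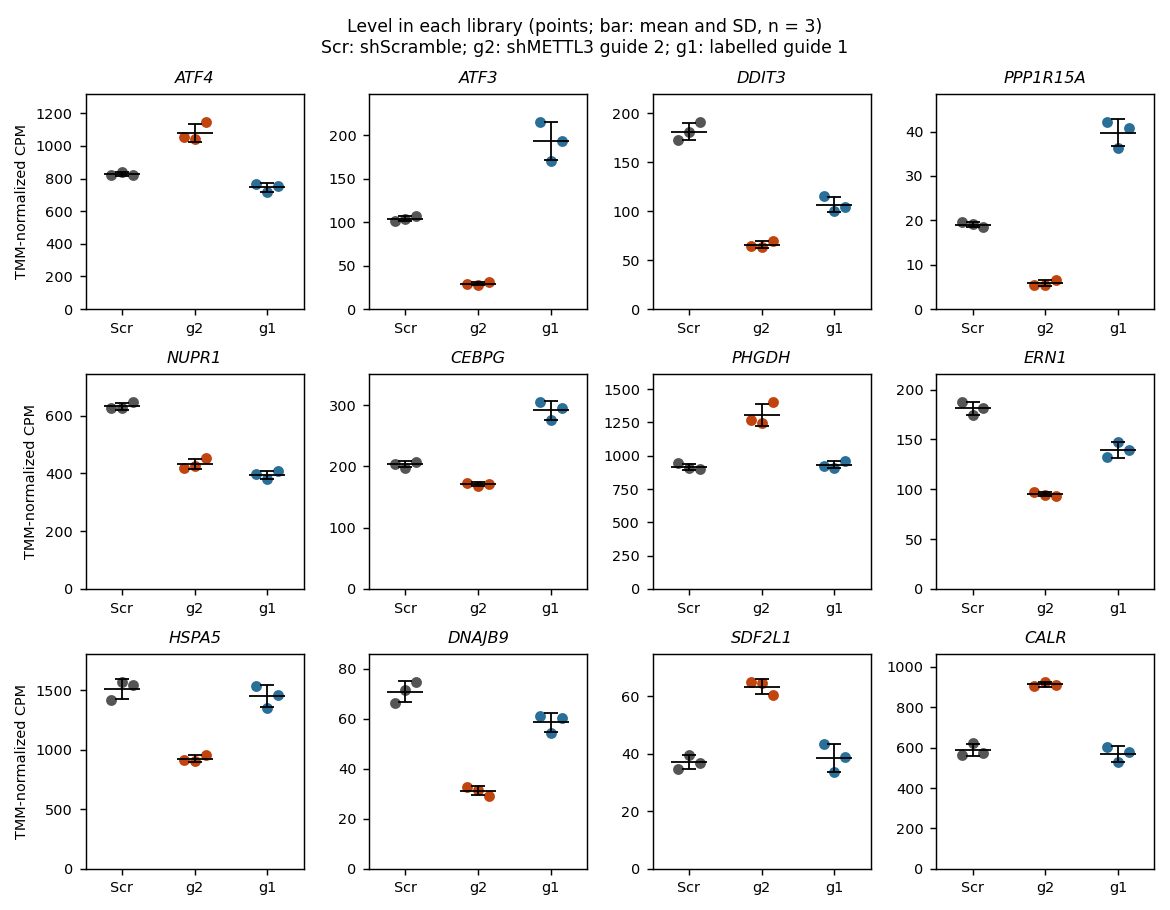
TMM-scaled CPM (vertical axes, from 0) of 12 genes in each library; points are libraries, and lines with bars are the mean and SD (n = 3) of shScramble, shMETTL3 guide 2 and the libraries labelled guide 1. ATF3 and PPP1R15A are lowest with guide 2 and highest in the libraries labelled guide 1, DDIT3 is below shScramble in both, and SDF2L1 and CALR are above all other libraries with guide 2.

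The genes for amino acid supply did not pass both thresholds in either comparison. PHGDH (chr1:119659798-119744215, plus strand), the first enzyme of serine synthesis, had 942, 908 and 900.3 CPM with shScramble, 1271, 1242 and 1402 with guide 2 and 924, 909 and 960.0 in the libraries labelled guide 1. The guide 2 libraries lay above all others, and the other groups overlapped. The log2 fold change with guide 2 was 0.51 ± 0.0508 (SE), adjusted p = 1.55e-09, the largest positive value on the ATF4 side. PSAT1 and PSPH, the enzymes of the next steps, stood at 0.40 and 0.35 with guide 2 and at 0.45 and -0.17 in the libraries labelled guide 1. ASNS, which makes asparagine and is a standard ATF4 target, had a mean of 937 ± 14.2 CPM (SD, n = 3) with shScramble, 936 ± 35.6 with guide 2 and 1151 ± 46.3 in the libraries labelled guide 1. Its log2 fold change of 0.30 in the last passed the adjusted p alone (adjusted p = 4.01e-06). The mitochondrial one-carbon enzymes SHMT2 and MTHFD2 stood at -0.01 and 0.07 with guide 2, and at -0.09 and 0.35 in the libraries labelled guide 1. Pseudogenes of ASNS and PSPH took counts equal to 2.40% and 4.78% of those of the parent genes, and their reads could be exchanged with them.

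Of the transporters, SLC7A11 exchanges cystine for glutamate, SLC7A5 with its partner SLC3A2 carries large neutral amino acids, and SLC7A1 carries cationic ones. Their log2 fold changes with guide 2 ran from -0.29 (SLC3A2) to 0.26 (SLC7A5), and in the libraries labelled guide 1 from -0.37 (SLC7A11) to 0.24 (SLC7A5). The partners of one transporter stood on opposite sides of 0 with guide 2, SLC7A5 at 813 ± 44.3 CPM with shScramble and 971 ± 58.3 with guide 2, and SLC3A2 at 619 ± 9.94 and 506 ± 25.9 (SD, n = 3). Both differences passed the adjusted p alone (adjusted p = 0.000226 and 1.79e-05, edgeR).

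All 6 genes of the feedback and target group had negative log2 fold changes with guide 2, from -1.70 to -0.19, and in each the guide 2 libraries lay below every shScramble library. Of all genes tested, 34.1% were separated in that direction. PPP1R15A (chr19:48872392-48876057, plus strand) had 19.6, 19.1 and 18.4 CPM with shScramble, 5.51, 5.50 and 6.66 with guide 2 and 42.1, 36.3 and 40.8 in the libraries labelled guide 1. It was the only one of the 6 called with guide 2, at a log2 fold change of -1.70 ± 0.0945 (SE), adjusted p = 1.31e-14, 3.24-fold lower. It rose 2.09-fold in the libraries labelled guide 1, at 1.06 ± 0.0738 (SE), adjusted p = 4.47e-13. TRIB3, a pseudokinase that restrains ATF4, stood at -0.43 with guide 2 and -0.34 in the libraries labelled guide 1, and DDIT4, an inhibitor of mTORC1 signalling, at -0.23 and -0.21. CHAC1, which degrades glutathione, stood at -0.19 and 0.04. The secreted glycoprotein gene STC2 stood at -0.33 and 0.34, and the lipoprotein receptor gene VLDLR at -0.32 and 0.11, so both were on opposite sides of 0 without being called. VLDLR was also the lowest gene of the 33 per length, and VLDLR-AS1 on the other strand had 45.5% of its counts.

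Of the ER sensors, ERN1 (chr17:64039142-64130819, minus strand), which encodes IRE1, had 187, 174 and 182 CPM with shScramble, 97.4, 94.3 and 93.4 with guide 2 and 132, 148 and 139 in the libraries labelled guide 1. The groups formed 3 bands with shScramble highest. Its log2 fold change was -0.93 ± 0.0485 (SE), adjusted p = 3.38e-15 with guide 2, 1.91-fold lower, and -0.37 ± 0.0472 (SE), adjusted p = 6.63e-08 in the libraries labelled guide 1, which did not reach 1.5-fold. EIF2AK3, which encodes PERK, had a log2 fold change of -0.21 with guide 2 and 0.01 in the libraries labelled guide 1. XBP1 stood at -0.03 (adjusted p = 0.555, edgeR) and -0.10. Gene counts do not separate its spliced and unspliced messengers, so they carry no measure of the nuclease activity of IRE1.

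The ER chaperones moved in both directions with guide 2. HSPA5 (chr9:125234853-125241330, minus strand), the chaperone of the list with the highest level per length in shScramble, had 1416, 1569 and 1543 CPM with shScramble, 916, 905 and 955 with guide 2 and 1536, 1349.7 and 1459 in the libraries labelled guide 1. All guide 2 libraries lay below all others, which overlapped. The log2 fold change was -0.71 ± 0.0539 (SE), adjusted p = 8.71e-12 with guide 2 and -0.06 ± 0.0536 (SE), adjusted p = 0.334 in the libraries labelled guide 1. DNAJB9 (chr7:108569568-108574850, plus strand), a J-domain partner of BiP and an XBP1 target, had 66.4, 71.4 and 74.8 CPM with shScramble, 32.8, 31.5 and 29.3 with guide 2 and 61.3, 54.4 and 60.2 in the libraries labelled guide 1. It fell 2.27-fold with guide 2, at a log2 fold change of -1.18 ± 0.0616 (SE), adjusted p = 3.41e-15, the largest fall on the ER side. Exons of PNPLA8 and THAP5 on the other strand share 6.45% of its exon bases. Counts of PNPLA8 equalled 143% of those of DNAJB9 with shScramble, 265% with guide 2 and 108% in the libraries labelled guide 1. Those of THAP5 equalled 156%, 290% and 147% in the same order. Reads in the shared stretch cannot be assigned to one gene with certainty.

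SDF2L1 (chr22:21642261-21644298, plus strand), an ER-resident protein of the BiP chaperone complex, had 34.6, 39.4 and 36.9 CPM with shScramble, 65.0, 64.7 and 60.5 with guide 2 and 43.5, 33.5 and 38.7 in the libraries labelled guide 1. CALR (chr19:12938578-12944489, plus strand), the calcium-binding lectin chaperone calreticulin, had 566, 624 and 574, then 906, 925 and 908, then 605, 527 and 579 CPM in the same order. In both genes every guide 2 library lay above every other library, and the other groups overlapped. The log2 fold changes with guide 2 were 0.78 ± 0.0730 (SE), adjusted p = 4.66e-09 for SDF2L1 and 0.64 ± 0.0522 (SE), adjusted p = 3.58e-11 for CALR. They were 0.06 (adjusted p = 0.477) and -0.04 (adjusted p = 0.469) in the libraries labelled guide 1. The call of CALR was close to the limit: with counts scaled by library size alone its log2 fold change was 0.49 and it was not called, and against a null of 1.5-fold (glmTreat) its adjusted p was 0.243. The remaining folding and degradation genes were not called with guide 2: HSP90B1, the ER form of HSP90, stood at 0.15, the disulphide isomerase PDIA4 at 0.31 and HERPUD1, a part of the degradation complex, at -0.41. These 3 genes stood, in the libraries labelled guide 1, at 0.36, 0.18 and -0.08. Among the 4 genes whose promoter windows held the ER stress response element, HSPA5 fell and CALR rose with guide 2, and HSP90B1 and XBP1 were not called.

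Guide 2 and the libraries labelled guide 1 were also compared directly, which shows where these 2 sets of libraries differed. Of the 33 genes, 2 were higher with guide 2 (SDF2L1 and CALR) and 7 were lower (ATF3, DDIT3, CEBPG, PPP1R15A, STC2, HSPA5 and DNAJB9), which is 27.3%. Over all genes tested 47.3% were called in this comparison, 19.1% raised and 28.2% lowered. Of the 6426 most expressed genes 32.1% were called, 22.3% raised and 9.73% lowered, and of the 30 genes among them 2 rose and 6 fell. The adjusted p alone was passed by 26 of the 33, 9 higher and 17 lower, and by 74.6% of all genes. Libraries did not overlap for 10 genes that were higher and 16 that were lower, against 35.4% and 40.4% of all genes. The differences for PPP1R15A and ATF3 were the widest, with log2 fold changes of -2.76 ± 0.0891 (SE), adjusted p = 8.96e-21 and -2.73 ± 0.0727 (SE), adjusted p = 1.48e-17. Scaling by library size alone removed the calls of SDF2L1 (0.58) and CALR (0.54), and glmTreat that of HSPA5 (adjusted p = 0.11). CEBPG differed by -0.77 and STC2 by -0.67, although neither was called against shScramble. ERN1 differed by -0.56 and was called in this comparison only with the library labelled guide 1 replicate 1 left out (-0.59), with scaling by library size alone (-0.69) or with a minimum mean of 1 CPM (-0.60). ATF4 itself was 1.45-fold higher with guide 2 than in the libraries labelled guide 1, below the limit of 1.5.

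Per kilobase of exon (RPKM from TMM-scaled CPM, the scale on which genes can be compared), shScramble levels spanned from 2.25 for VLDLR to 432 for PSAT1. PSAT1 was followed by HSPA5 at 386, ATF4 at 329.9, DDIT4 at 218, CALR at 217 and ASNS at 210.3 RPKM. With guide 2, HSPA5 stood at 237 and CALR at 336 RPKM, so their order was turned. At the low end with shScramble were ERN1 at 16.7, PPP1R15A at 6.15 and EIF2AK3 at 4.99 RPKM. The coefficient of variation between the 3 libraries of a group was at most 7.78% with shScramble (ATF5), 11.4% with guide 2 (PPP1R15A) and 12.9% in the libraries labelled guide 1 (SDF2L1), with medians of 3.51%, 3.80% and 5.82%.

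**Figure D3:**
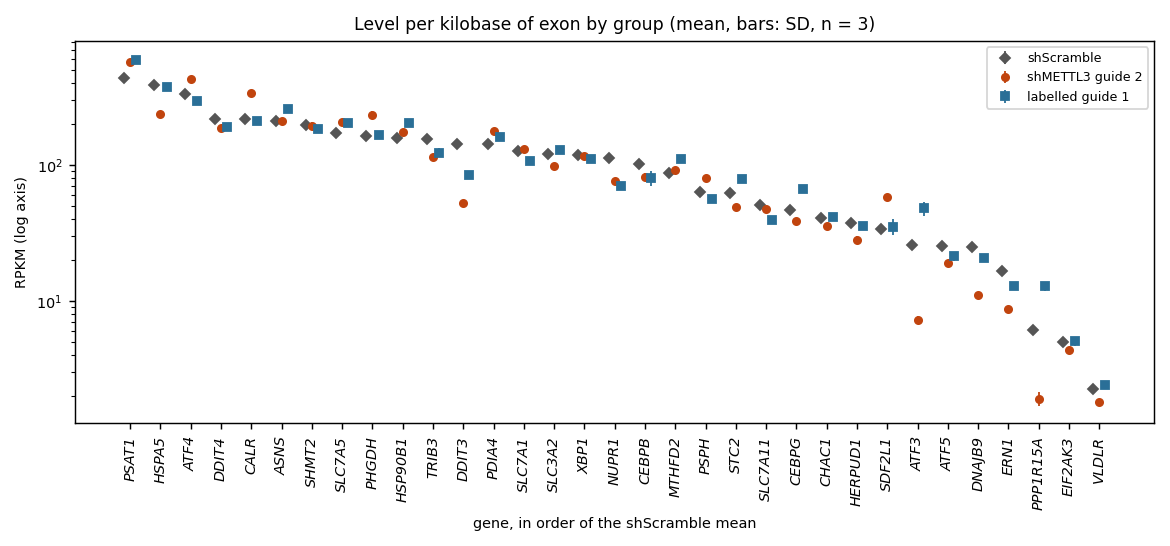
Mean level of each gene per kilobase of exon (RPKM, log axis) in shScramble (diamonds), shMETTL3 guide 2 (circles) and the libraries labelled guide 1 (squares); bars are the SD (n = 3) and are mostly smaller than the marks. Genes are ordered by the shScramble mean, from PSAT1 to VLDLR, and ATF3 and PPP1R15A show the widest spread between groups.

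Genes of the same pathways outside the 33 were described by lists of known function. The shares of all genes given beside these lists include genes of low level. Of the 6426 most expressed genes, 10.7% rose and 3.38% fell with guide 2. In the libraries labelled guide 1, 10.7% of the 6426 rose and 10.3% fell. How many listed genes were among the 6426 was not counted. Of 26 further targets of ATF4 or CHOP, 0 rose and 11 fell with guide 2 (8.85% and 20.4% of all genes tested), with a median log2 fold change of -0.41. Those with the largest change were ALDH1L2, a mitochondrial folate enzyme, at -2.77, GDF15, a stress-induced secreted factor, at -1.13, MAP1LC3B, an autophagosome protein, at -1.12, and GADD45A, a growth arrest gene, at -1.09. Of the 26, 5 rose and 5 fell in the libraries labelled guide 1 (21.2% and 16.5% of all genes tested), with a median of -0.01. ALDH1L2 had 6.69 ± 0.711 CPM with shScramble, 0.983 ± 0.140 with guide 2 and 196 ± 2.55 in the libraries labelled guide 1 (SD, n = 3), where its log2 fold change was 4.86. Like ATF3 and PPP1R15A, it was lowest with guide 2 and highest in the libraries labelled guide 1.

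Of 14 genes around eIF2 (other eIF2 kinases, eIF2 and eIF2B, with PPP1R15B, a phosphatase subunit, and DELE1 and OMA1, which relay mitochondrial stress), 0 rose and 0 fell with guide 2 by both thresholds, against 8.85% and 20.4% of all genes tested. The adjusted p alone was passed by 9 of the 14 and by 61.8% of all genes, and the median log2 fold change was 0.19. In the libraries labelled guide 1, where 21.2% of all genes rose, 1 of the 14 rose: EIF2AK2, the kinase PKR that senses double-stranded RNA, at 1.01 ± 0.0501 (SE), adjusted p = 2.42e-16. Of 43 other genes for ER folding, translocation and degradation, 0 rose and 2 fell with guide 2 (8.85% and 20.4% of all genes tested). They were ATF6, the remaining sensor, at -0.65 ± 0.0445 (SE), adjusted p = 9.97e-13, and HYOU1, an ER chaperone of the HSP70 class, at -0.62 ± 0.0449 (SE), adjusted p = 2.6e-12. Of the 43, in the libraries labelled guide 1, 5 rose and 0 fell (21.2% and 16.5% of all genes tested), and the median log2 fold change of the 43 with guide 2 was -0.05.

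**Figure D4:**
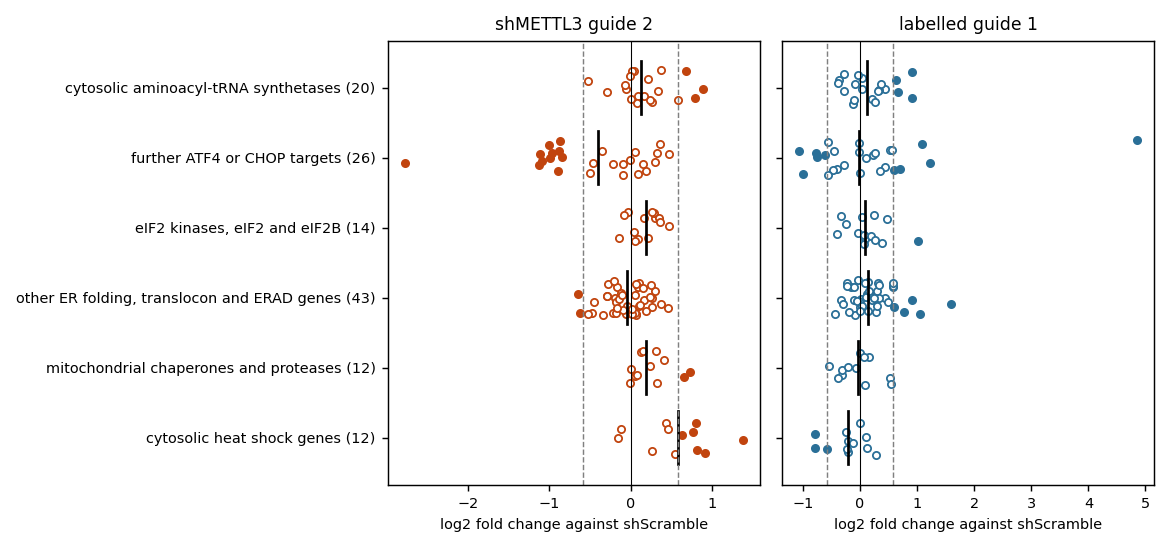
Log2 fold change against shScramble (horizontal axes, which differ in range) of the genes in 6 lists related to the stress responses, with shMETTL3 guide 2 on the left and the libraries labelled guide 1 on the right; points are genes, filled if they passed both thresholds, black bars are medians and dashed lines mark a fold change of 1.5, and the eIF2 row also holds PPP1R15B, DELE1 and OMA1. The further ATF4 or CHOP targets hold 11 filled points on the negative side with guide 2, and the cytosolic heat shock genes hold 6 on the positive side.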

How the data were processed

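The authors trimmed reads with Trim Galore, cutadapt and FastQC, aligned them to GRCh38 with STAR and deposited raw featureCounts counts per Ensembl gene for each of the 9 libraries; versions, strand setting and treatment of multi-mapping reads were not given in the sources used here. Symbols from a gene name table matched 93.2% of the 60675 genes. Counts were fitted with edgeR 4.0.16 (R 4.3.3; TMM scaling, filterByExpr with a minimum count of 10, robust quasi-likelihood test, group as the only term) over all 9 libraries, which left 19278 genes, and p-values were adjusted over all of them. A call needed an adjusted p under 0.05 with a difference of 1.5-fold or more. The exact permutation test of 3 against 3 libraries cannot go below 0.1, so single values rest on the edgeR fit. RPKM was TMM-scaled CPM per kilobase of merged exons in a GRCh38 annotation, from which coordinates and exon sharing also came. Promoter windows came from RefSeq (GRCh38.p14).

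The 33 genes and the wider lists (aminoacyl-tRNA synthetases, further ATF4 or CHOP targets, eIF2 genes and their stress relays, other ER genes, mitochondrial chaperones and cytosolic heat shock genes) and markers were chosen with earlier results of these data known. Values per library are given for METTL3, ATF4, genes called in opposite directions and the 3 largest rises and 3 largest falls of each comparison; HSPA5 was added after its values were seen. Of each wider list up to 4 called genes with the largest guide 2 change are named; further ones named were chosen after their values were seen. Alternatives were DESeq2 1.42.0, its size factors in edgeR, scaling by library size alone, no filter, the 6 libraries of a comparison alone, a CPM minimum of 1 on average, the adjusted p alone, edgeR's glmTreat, a replicate block, and leaving out each library. Each fit was tested on simulated data.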

Additional observations from a re-analysis of the deposited data

Results flagged for a closer look

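The response of 2 genes differed between guide 2 and the libraries labelled guide 1 in sign, with both called against the shared shScramble libraries. The 2 genes were taken because of these opposite calls, so a difference between the 2 sets of libraries followed from the choice. The share of all genes with such opposite calls is not given here, so the count only describes the 33 genes. The p-values of that difference in the edgeR fit come from the same values and are no separate support. ATF3 was lower with guide 2 in 3 of 3 libraries and higher in 3 of 3 libraries labelled guide 1 than in any shScramble library. Its log2 fold change of guide 2 against the libraries labelled guide 1 was -2.73 ± 0.0727 (SE), adjusted p = 1.48e-17, over a range of -2.86 to -2.64 in the alternatives. PPP1R15A showed the same order of groups in 3 of 3 libraries each, with a difference of -2.76 ± 0.0891 (SE), adjusted p = 8.96e-21 and a range of -2.89 to -2.70. METTL3 itself differed by -0.86 between the same libraries, and the part of the missing METTL3 loss in the libraries labelled guide 1 was not tested.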

How the results depend on the processing

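The 8 calls with guide 2 and the 4 in the libraries labelled guide 1 were unchanged with DESeq2, its size factors, no filter and only the 6 libraries compared, and without any 1 library; a minimum mean of 1 CPM added NUPR1 to the falls with guide 2 (-0.60). Scaling by library size alone left 1 rise with guide 2 (1 on the ER side), with CALR lost, and 0 rises of guide 2 against the libraries labelled guide 1 (0 on the ER side), where SDF2L1 (0.58) and CALR (0.54) were lost; it added NUPR1 with guide 2 (-0.70). That scaling moved the median of all genes with guide 2 from -0.04 to -0.19 and the share of rises among calls from 30.2% to 17.2%. Over all genes the guide 2 rises were 1706, against 1012 by library size alone, and glmTreat gave 890 rises and 2371 falls where 3939 fell. The adjusted p alone gave 5792 rises and 6118 falls. In the libraries labelled guide 1, 4083 rises and 3182 falls became 6818 and 6370 with the adjusted p alone, and 1676 falls with glmTreat. Between the 2 sets 3683 rises became 6693 with the adjusted p alone. Against a null of 1.5-fold, glmTreat left 1 rise with guide 2 (1 on the ER side) and, of guide 2 against the libraries labelled guide 1, 1 fall on the ER side, with HSPA5 lost (adjusted p = 0.11). With the adjusted p alone, 9 rose and 18 fell with guide 2 (5 and 13 on the ATF4 side, 4 and 5 on the ER side). In the libraries labelled guide 1, 10 rose and 13 fell (8 and 10, 2 and 3), and between the 2 sets 9 and 17 did (6 and 11 on the ATF4 side, 6 falls on the ER side). Dropping the fold limit is what moved these counts.

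Signs turned only for genes not called, and the values after turning were at most 0.12 in size. With guide 2 these were ASNS (0.024 with DESeq2, 0.0089 with its size factors, 0.020 with no filter, -0.029 to 0.020 without 1 library), SHMT2 (0.015, 0.011 with no filter, -0.058 to 0.023) and, by library size alone, MTHFD2 (-0.083), SLC7A1 (-0.092) and HSP90B1 (-0.0017). In the libraries labelled guide 1 they were EIF2AK3 (-0.00028 by library size alone, -0.045 to 0.047 without 1 library), SDF2L1 (-0.029 to 0.15), CALR (-0.083 to 0.0045) and CHAC1 (-0.0041 to 0.084). Between the 2 sets they were, by library size alone, CEBPB (-0.11), NUPR1 (-0.0074), SHMT2 (-0.060), SLC7A5 (-0.12), XBP1 (-0.064) and PDIA4 (-0.0014), with a minimum of 1 CPM CEBPB (-0.019) and SLC7A5 (-0.024), and without 1 library CEBPB (-0.041 to 0.13), DDIT4 (-0.039 to 0.0093) and SLC7A5 (-0.030 to 0.067). The cause was not tested.

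Replicate numbers were shared by the groups. Over 9 same-numbered pairs the correlation of deviations from group means ran from -0.098 to 0.053, and none was over 0.1. This gave no sign of a pairing by number, but with 3 libraries per group it cannot exclude one. With the replicate block, 2 rose and 6 fell with guide 2, 2 and 2 in the libraries labelled guide 1, and 2 and 7 between them, with no call changed. Depth limits the low genes most: PPP1R15A had 5.50 to 6.66 CPM with guide 2.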

Other observations

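Cytosolic heat shock genes answer to heat shock factor rather than to the ER. With guide 2, of 12 such genes 6 rose and 0 fell, with a median log2 fold change of 0.59 against -0.04 over all genes tested, of which 8.85% rose and 20.4% fell. They included HSPB1, a small heat shock protein, at 1.39 ± 0.0566 (SE), adjusted p = 5.29e-17, HSPA1B, an inducible HSP70, at 0.91, and the cytosolic HSP90 genes HSP90AA1 and HSP90AB1 at 0.81 and 0.80 (edgeR). HSPB1 stood at 412 ± 8.68 CPM with shScramble, 1081 ± 107 with guide 2 and 239 ± 9.37 in the libraries labelled guide 1 (SD, n = 3). In the latter 0 of the 12 rose and 3 fell (21.2% and 16.5% of all genes tested), with a median of -0.21. HSPA1A and HSPA1B are near-identical copies, and reads could be split between them by the counting.

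Of 20 cytosolic aminoacyl-tRNA synthetases, many of which are ATF4 targets, 3 rose and 0 fell with guide 2 (8.85% and 20.4% of all genes tested). They were VARS1 at 0.89, FARSA at 0.79 and QARS1 at 0.68, and the median of the 20 was 0.13. Among those that rose in the libraries labelled guide 1, where 0 fell, were YARS1 at 0.91, FARSB at 0.90 and LARS1 at 0.67, which were not called with guide 2. The subunits of phenylalanyl-tRNA synthetase, FARSA and FARSB, stood at 0.79 and 0.27 with guide 2 and at 0.43 and 0.90 in the libraries labelled guide 1. Of 12 mitochondrial chaperones and proteases, 2 rose with guide 2, TRAP1 at 0.73 and HTRA2 at 0.66, and 0 fell (8.85% and 20.4% of all genes tested); in the libraries labelled guide 1 0 rose and 0 fell by both thresholds (21.2% and 16.5% of all genes tested), while 8 passed the adjusted p alone, as did 68.4% of all genes tested.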
